A study of Gallus gallus with 15 samples.

Results

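MicroRNA genes were taken from a liver expression array of chickens as the features that the platform annotation gave exactly 1 gene symbol, where that symbol was MIR followed by a digit or by LET7. A feature is a set of array probes summarised to 1 value per bird. Of 18308 features, 402 met this rule, and with 1 feature kept per gene (the one with the highest mean over all birds) they stood for 392 microRNA genes among 11528 named genes. A further 23 features carried several symbols of which 1 or more was a microRNA gene, and these were not used.

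Liver total RNA was measured in 15 male chickens, 13 weeks old, with 1 array per bird and 3 birds in each of 5 breeds. Of these, 4 were Korean native breeds, Yeonsan Ogye, Hyunin Black, Hwangbong and Hoengseong Yakdak, and White Leghorn was the control breed. All birds hatched from eggs collected at local farms and were raised at 1 animal farm with free access to feed, with no treatment, transgene or mutation named. The labels call the birds of a breed biological replicates and give no family, flock or batch, so the p-values rest on the spread among these birds. Which farm the eggs of each breed came from is not given.

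A microRNA is cut from a longer primary transcript by the nuclease Drosha and its partner DGCR8, exported to the cytoplasm, trimmed by Dicer and loaded into an Argonaute protein, where it pairs with messenger RNAs and lowers their translation or stability. Many microRNA genes lie inside the introns of other genes and share their transcripts, and others lie in clusters that are transcribed as 1 unit. In vertebrate liver the microRNA best known for its abundance is miR-122, and miR-33 and the miR-148, miR-192 and miR-194 families are known from studies of lipid metabolism or hepatocyte identity. The labelling used here copied long RNA into single-stranded cDNA, so a feature's signal can come from a primary transcript, a host transcript or background, and no assay of mature microRNA was part of the data. Probe positions and sequence differences between breeds under the probes were not checked. The differences below are therefore differences of signal, and what part such sequence differences have in them was not tested. MIR122 and MIR33 had no feature of their own under the rule and were not analysed here.

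The arrays were alike in scale. The median of an array was 6.12 to 6.20 (log2), and pairwise correlations were 0.977 to 0.991. The 10 measured hepatocyte markers, among them albumin and the fibrinogen chains, had mean values of 12.44 to 13.80, which matches the liver label, and the 5 measured striated muscle markers had 2.69 to 6.68. Over 4 red-cell markers, the mean per bird was 7.27 to 8.15 in the native birds, against 7.10 to 7.20 in White Leghorn birds, although none of the 4 passed the test in any comparison with White Leghorn. This marker difference runs along with every comparison of native breeds with White Leghorn below, and its part in those results was not tested. In bulk liver, fewer cells of a type and less RNA per cell cannot be told apart.

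MicroRNA gene features gave low signals. Their means over the 15 birds had a median of 4.21 on the log2 scale (range 1.43 to 10.22), where all 18308 features had a median of 6.15 (range 1.25 to 14.46). Below the lower quartile of all features, 4.68, lay 231 of the 392 microRNA genes (58.9%), and above the upper quartile, 7.52, lay 10 (2.6%). The residual spread between birds of a breed was also wider, with a median SD of 0.23 on the log2 scale for microRNA genes and 0.187 for all features. A feature's value depends on its own probes, so these values describe signal and not which microRNA gene is more transcribed, and no detection call was available to say which of the low signals exceed background.

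**Figure D1:**
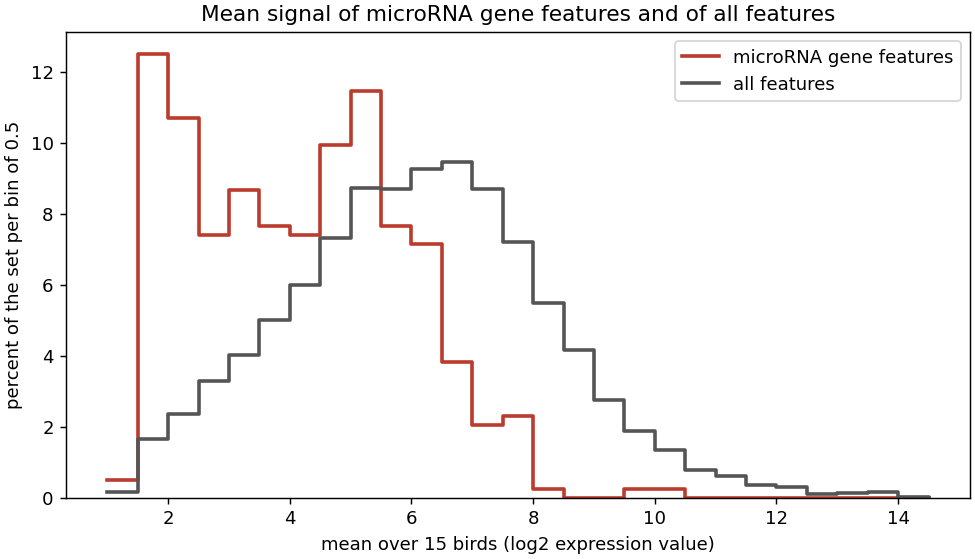
Distribution of mean signal over 15 birds (log2 expression value, in bins of 0.5, horizontal axis) as the percent of each set (vertical axis), for 392 microRNA gene features and for all 18308 features. The microRNA gene features pile up at the low end, with a median of 4.21, where all features have a median of 6.15.

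The highest mean signals belonged to MIR1604 (10.22), MIR1648 (9.54), MIR1653 (8.03), MIR1754 (7.95), MIR1557 (7.95) and MIR1698-1 (7.87). These symbols carry the high catalogue numbers given to microRNAs found by small-RNA sequencing in chicken, for most of which little is known of function. MIR1604 had 10.30 ± 0.24 in Yeonsan Ogye, 10.22 ± 0.25 in Hyunin Black, 10.19 ± 0.44 in Hwangbong, 10.05 ± 0.23 in Hoengseong Yakdak and 10.35 ± 0.07 in White Leghorn (SD, n = 3 each). It did not pass the test for any difference among breeds, nor did the other 5, and the largest F among them was 3.68 for MIR1557 (limma adjusted p = 0.256). The lowest mean signals were those of MIR367 (1.43), whose cluster with the MIR302 genes is known from pluripotent stem cells, and MIR1812 (1.48).

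Differences among breeds were few, at a share near that of the whole array. In the moderated F test over the 5 breed means, 6 of 392 microRNA genes passed at an adjusted p under 0.05 (1.53%), where 1.6% of all features did. The 6 were MIR1803 (F = 26.5), MIR1719 (F = 15.5), MIR1555 (F = 14.3), MIR1673 (F = 11.5), MIR1646 (F = 11.4) and MIR1756A (F = 11.3). Another 3, MIR122B, MIR1556 and MIR181B1, passed in 1 or more comparisons between breeds but not in the F test, which makes 9 genes. Of these 9, only MIR1555 and MIR1646 had a mean signal above the median of all features, and MIR1556, MIR1756A, MIR181B1 and MIR122B lay between its percentiles 3.4 and 14.

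**Figure D2:**
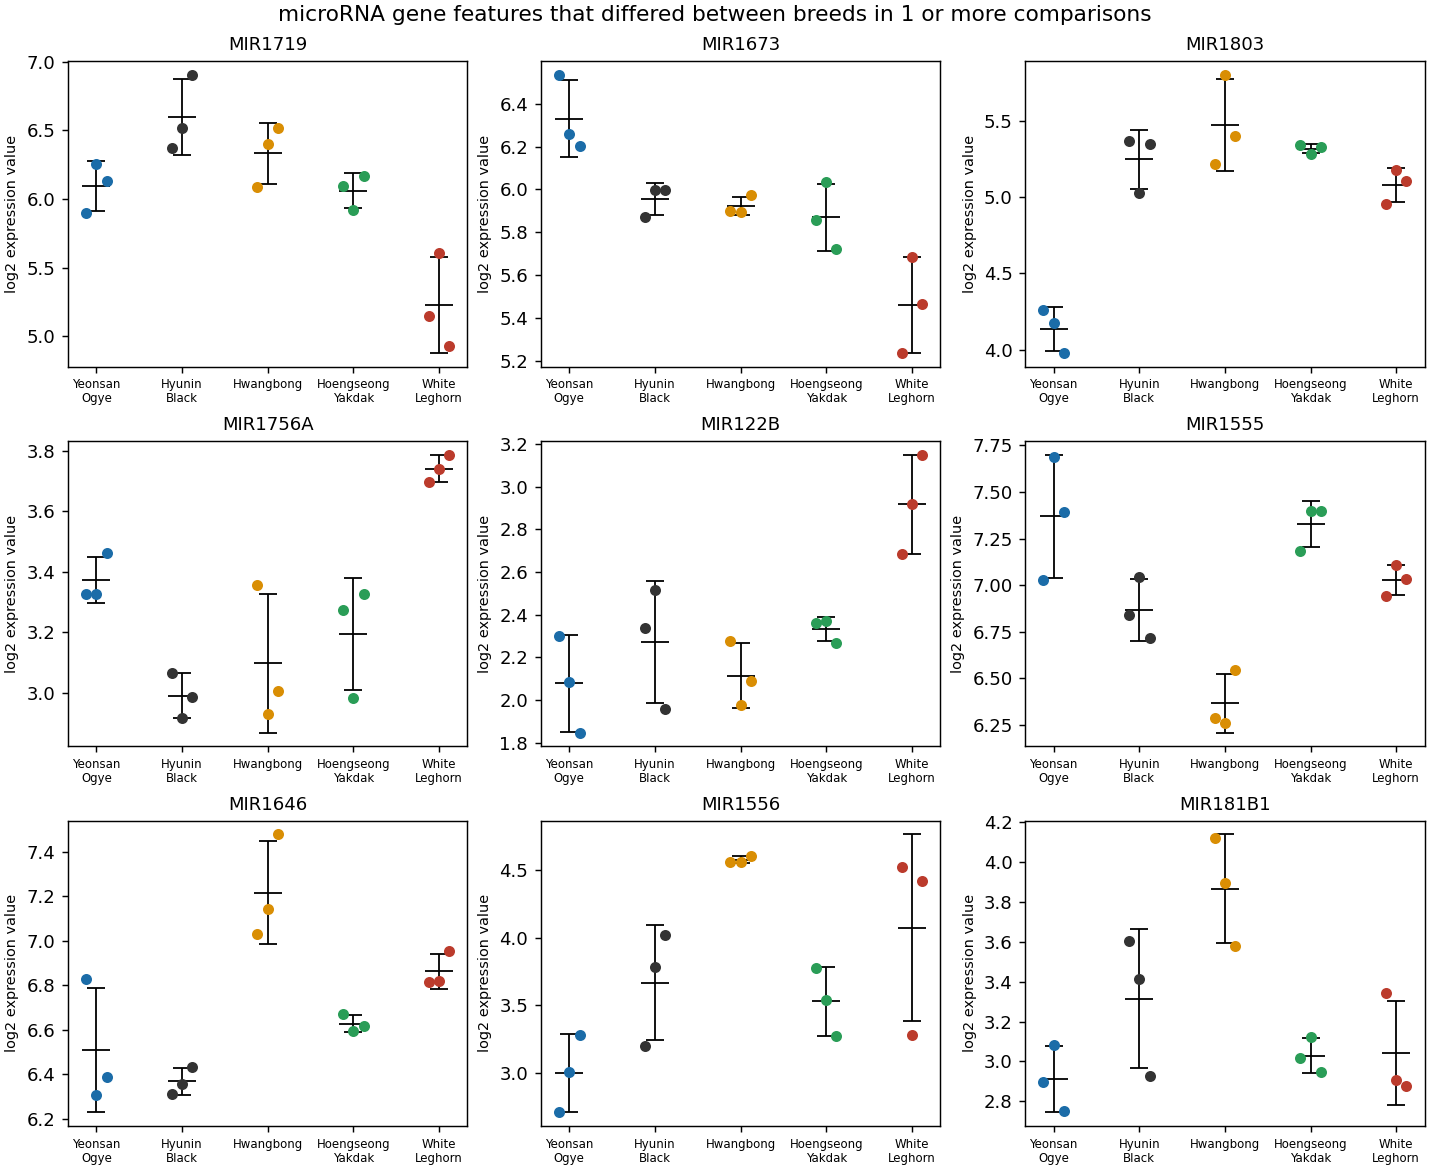
Log2 expression value (vertical axis) of the 9 microRNA genes that differed between breeds in 1 or more comparisons, by breed (horizontal axis). Points are birds, and bars are the mean and SD of 3 birds. White Leghorn birds lie below all native birds for MIR1719 and MIR1673 and above all of them for MIR1756A and MIR122B, Yeonsan Ogye birds lie below all others for MIR1803, and Hwangbong birds lie below all others for MIR1555 and above all others for MIR1646 and MIR1556. The vertical axes differ in range between panels.

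Between the native breeds and White Leghorn, 4 microRNA genes stood apart when the 4 native breeds were averaged: MIR1719 and MIR1673 rose, and MIR1756A and MIR122B fell. These are 4 of 392 genes (1.02%), where 0.432% of all features passed. The comparisons of single breeds with White Leghorn share the same 3 White Leghorn birds, so their agreement is not independent.

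MIR1719 had 5.90, 6.25 and 6.13 in Yeonsan Ogye birds, 6.38, 6.51 and 6.90 in Hyunin Black birds, 6.08, 6.40 and 6.51 in Hwangbong birds and 6.10, 5.92 and 6.17 in Hoengseong Yakdak birds, against 5.15, 5.61 and 4.93 in White Leghorn birds. All 12 native birds lay above all 3 White Leghorn birds. The native mean was higher by 1.04 ± 0.15 on the log2 scale, where 1 is a factor of 2 (standard error of the model, limma adjusted p = 0.012). Among single breeds the difference passed in Hyunin Black (1.37 ± 0.18, limma adjusted p = 0.0146) and Hwangbong (1.11 ± 0.18, adjusted p = 0.0147). In Yeonsan Ogye it was 0.87 ± 0.18 (adjusted p = 0.0999) and in Hoengseong Yakdak 0.83 ± 0.18 (adjusted p = 0.0654), neither past the threshold. When 1 bird was left out at a time, the F test for MIR1719 passed in 15 of 15 fits. The native mean lost its call without White Leghorn bird 1 or 3 (adjusted p up to 0.0722), Hyunin Black without its bird 3 (0.0619), and Hwangbong without White Leghorn bird 1 or 3 or Hwangbong bird 2 or 3 (up to 0.0775).

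MIR1673 had 6.53, 6.26 and 6.20 in Yeonsan Ogye birds, 5.87, 6.0 and 6.0 in Hyunin Black birds, 5.90, 5.90 and 5.97 in Hwangbong birds and 5.86, 6.03 and 5.72 in Hoengseong Yakdak birds, against 5.24, 5.68 and 5.46 in White Leghorn birds. Native and White Leghorn birds did not overlap, and Yeonsan Ogye birds lay above all others. The native mean was higher by 0.56 ± 0.10 (limma adjusted p = 0.0314). The difference was 0.87 ± 0.13 in Yeonsan Ogye (adjusted p = 0.0151), while the other 3 breeds had differences of 0.41 to 0.49 and did not pass (adjusted p = 0.136 to 0.191). The Yeonsan Ogye call was lost without White Leghorn bird 1 or 3 (adjusted p up to 0.0549). The call on the native mean was lost without White Leghorn bird 1 or 3, Hyunin Black bird 2 or 3, Hwangbong bird 2 or 3, or Hoengseong Yakdak bird 2 (up to 0.168). The F test passed in 9 of 15 fits and was lost without White Leghorn bird 1 or 3, Yeonsan Ogye bird 1 or 2, or Hwangbong bird 2 or 3 (up to 0.0762).

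MIR1756A had 3.33, 3.33 and 3.46 in Yeonsan Ogye birds, 3.07, 2.92 and 2.99 in Hyunin Black birds, 3.36, 2.93 and 3.00 in Hwangbong birds and 3.27, 2.98 and 3.33 in Hoengseong Yakdak birds, against 3.70, 3.74 and 3.79 in White Leghorn birds. White Leghorn was the high breed, with no overlap, at a signal that is low for the array. The native mean fell by 0.58 ± 0.10 on the log2 scale (limma adjusted p = 0.0251). Hyunin Black (-0.75 ± 0.12, adjusted p = 0.027) and Hwangbong (-0.65 ± 0.12, adjusted p = 0.0352) passed alone. Yeonsan Ogye (-0.37 ± 0.12) and Hoengseong Yakdak (-0.55 ± 0.12) did not. Leaving out any of the 3 White Leghorn birds ended each of these calls, as did any Hyunin Black bird for that breed, and Hyunin Black bird 3 or Hwangbong bird 2 or 3 for Hwangbong (adjusted p up to 0.145). A further quantile normalisation also ended the calls in Hyunin Black and Hwangbong (adjusted p = 0.0529 and 0.0582). The F test passed in 8 of 15 fits that left out 1 bird, being lost without any White Leghorn bird, Hyunin Black bird 2 or 3, or Hwangbong bird 2 or 3 (adjusted p up to 0.0916), and was lost under quantile normalisation (0.052).

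MIR122B shares its number with miR-122 but is a gene of its own, and it lies inside UNC5C, the gene of a netrin receptor. It had 2.30, 2.09 and 1.85 in Yeonsan Ogye birds, 2.34, 2.52 and 1.96 in Hyunin Black birds, 2.28, 1.98 and 2.09 in Hwangbong birds and 2.36, 2.37 and 2.27 in Hoengseong Yakdak birds, against 2.68, 2.92 and 3.15 in White Leghorn birds. The groups did not overlap, and the mean signal of the feature lay at percentile 3.4 of the array. The native mean fell by 0.72 ± 0.13 on the log2 scale (limma adjusted p = 0.0304). Yeonsan Ogye had a larger fall than Hwangbong, -0.84 ± 0.16, which did not pass (adjusted p = 0.0616). Hwangbong passed alone (-0.80 ± 0.16, adjusted p = 0.0435), and the call held in 5 of 15 fits that left out 1 bird. A further quantile normalisation ended it (adjusted p = 0.0515), as did the replicate block (0.0573). It was also lost without White Leghorn bird 2 or 3, Yeonsan Ogye bird 2, Hyunin Black bird 1, any Hwangbong bird or any Hoengseong Yakdak bird (adjusted p up to 0.157). The call on the native mean was lost without any White Leghorn bird, Hwangbong bird 2 or 3, or Hoengseong Yakdak bird 2 (up to 0.131).

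Only 6 microRNA genes separated all 12 native birds from all 3 White Leghorn birds (1.53%, where 1.34% of all features did). The other two were MIR1797 (-0.29 in the native mean) and MIR449B (-0.23), named after their values were seen, and neither passed the test.

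In Yeonsan Ogye alone, 2 of 392 microRNA genes passed against White Leghorn, where 0.191% of all features did. MIR1673 rose, as above, and MIR1803 fell by 0.94 ± 0.15 on the log2 scale (limma adjusted p = 0.0216). In Hyunin Black, 2 genes passed (0.164% of all features), MIR1719 upwards and MIR1756A downwards. In Hwangbong, 3 genes passed (0.579% of all features), MIR1719 upwards and MIR1756A and MIR122B downwards. In Hoengseong Yakdak, 0 of 392 passed with limma, where 0.552% of all features did, and 41 had an unadjusted p under 0.05 (10.5%, where 12.8% of all features did).

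Among genes with no overlap between Hoengseong Yakdak and White Leghorn birds, the largest differences upwards were those of MIR1766 (1.15 ± 0.38, limma adjusted p = 0.209), MIR1674 (1.00 ± 0.24, adjusted p = 0.0808) and MIR106A (0.91 ± 0.22, adjusted p = 0.0842). MIR106A belongs to a paralogous copy of the MIR17 cluster, which is known for promoting cell proliferation. The 3 measured genes of its cluster, MIR20B, MIR18B and MIR106A, had mean signals of 2.28 to 2.39. Their pairs had r from -0.32 to -0.002, and their differences in Hoengseong Yakdak ranged from -0.12 to 0.91. The largest downwards were MIR1458 (-0.94 ± 0.36), MIR103A1 (-0.87 ± 0.21), MIR3536 (-0.82 ± 0.29) and MIR1577 (-0.78 ± 0.38). MIR103A1 is a gene of the family of MIR103 and MIR107 genes, known in mouse liver for a link to insulin sensitivity. None of these passed.

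In the other 3 breeds the same rule brought up further genes below the threshold. In Yeonsan Ogye these were MIR1656 (0.62 ± 0.17) and MIR30B (0.47 ± 0.16) upwards, and MIR1458 (-0.90 ± 0.36) and MIR1796 (-0.79 ± 0.36) downwards. In Hyunin Black they were MIR106A (0.65 ± 0.22) and MIR1786 (0.45 ± 0.30) upwards, and MIR1809 (-1.04 ± 0.27), MIR1816 (-0.94 ± 0.24) and MIR1580 (-0.86 ± 0.44) downwards. In Hwangbong they were MIR181B1 (0.82 ± 0.19), MIR30E (0.57 ± 0.20) and MIR1710 (0.52 ± 0.27) upwards, and MIR1796 (-0.79 ± 0.36) and MIR1555 (-0.66 ± 0.15) downwards. Limma adjusted p-values were 0.0681 or above for all of these.

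**Figure D3:**
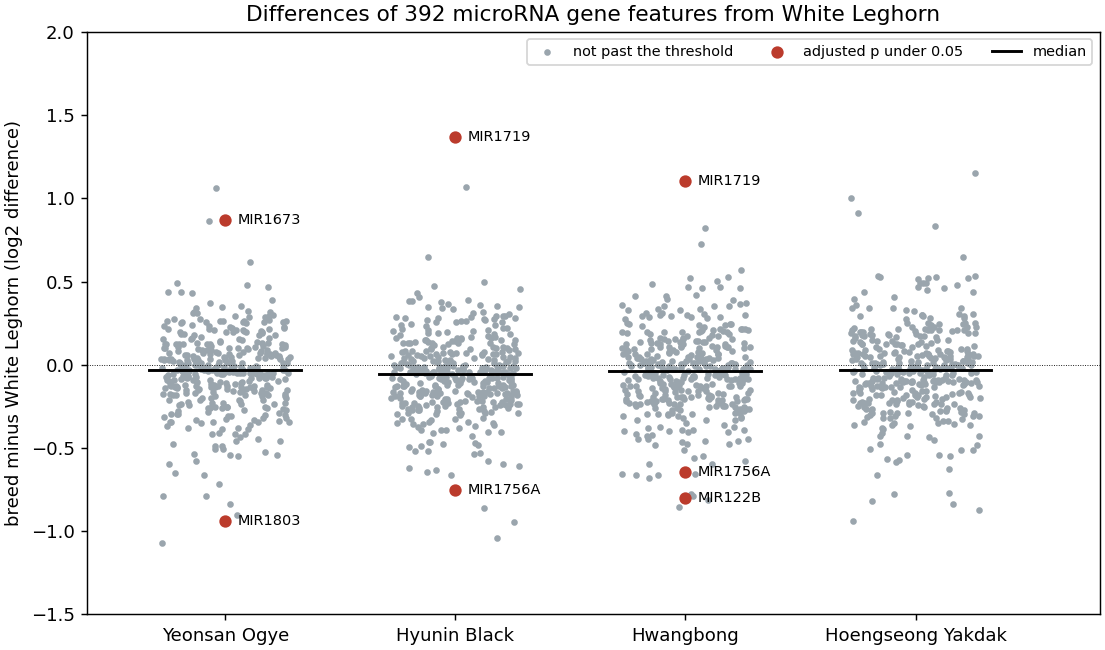
Difference of each native breed from White Leghorn (vertical axis, log2) for 392 microRNA gene features. Each point is a gene, the black line is the median, and red points passed at an adjusted p under 0.05. The medians lie between -0.05 and -0.03, and 2, 2, 3 and 0 genes passed in Yeonsan Ogye, Hyunin Black, Hwangbong and Hoengseong Yakdak.

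As a set, the microRNA gene features lay slightly below 0 in each comparison with White Leghorn. The median difference was -0.03 in Yeonsan Ogye, -0.05 in Hyunin Black, -0.04 in Hwangbong and -0.03 in Hoengseong Yakdak, against medians of -0.01 to 0.00 over all features. The share of microRNA genes above 0 was 42.3%, 35.7%, 41.8% and 43.6% in that order of breeds, where 47.6% to 49.8% of all features lay above 0. The median standard error of a single microRNA gene was 0.18, which is not the error of a median over 392 genes, and the shift of the set was not tested. All these comparisons use the same 3 White Leghorn birds, so their agreement is not independent. The microRNA gene features also had lower signals than all features, so the reference is not matched in signal. Counts of genes whose 3 birds did not overlap the 3 White Leghorn birds were near or under the share of the array. They were 50 (12.8%) in Yeonsan Ogye, where 13% of all features did so, 54 (13.8%) in Hyunin Black, where 16.3% did, 52 (13.3%) in Hwangbong, where 18.7% did, and 49 (12.5%) in Hoengseong Yakdak, where 17.7% did.

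Among the native breeds, MIR1803, which had the largest F, was low in Yeonsan Ogye. It had 5.21, 5.80 and 5.40 in Hwangbong birds, 5.34, 5.28 and 5.33 in Hoengseong Yakdak birds, 5.37, 5.03 and 5.35 in Hyunin Black birds and 4.26, 4.17 and 3.98 in Yeonsan Ogye birds, and 4.96, 5.18 and 5.11 in White Leghorn birds. The 3 Yeonsan Ogye birds lay below the other 12. MIR1803 was higher than in Yeonsan Ogye by 1.33 ± 0.15 in Hwangbong (limma adjusted p = 0.00176), by 1.18 ± 0.15 in Hoengseong Yakdak (adjusted p = 0.0023) and by 1.11 ± 0.15 in Hyunin Black (adjusted p = 0.00971). The F test and the Hwangbong and Hoengseong Yakdak calls held in 15 of 15 fits that left out 1 bird. The Hyunin Black call was lost without Yeonsan Ogye bird 2 or Hyunin Black bird 1 or 3 (adjusted p up to 0.0653), and the call of Yeonsan Ogye against White Leghorn without bird 2 or 3 of either breed (up to 0.0795). MIR1803 lay in no other annotated gene, and the nearest measured genes on its sides were NETO1, which codes for an auxiliary subunit of glutamate receptors, and SOCS6, a suppressor of cytokine signalling. Its correlation over 15 birds was 0.06 with NETO1 and -0.09 with SOCS6.

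MIR1555 was low in Hwangbong. It had 7.19, 7.40 and 7.40 in Hoengseong Yakdak birds, 6.29, 6.26 and 6.54 in Hwangbong birds and 7.03, 7.69 and 7.39 in Yeonsan Ogye birds, with 6.84, 7.04 and 6.72 in Hyunin Black birds and 6.94, 7.11 and 7.03 in White Leghorn birds. No Hwangbong bird reached the level of any other bird. The difference was 0.96 ± 0.15 for Hoengseong Yakdak over Hwangbong (limma adjusted p = 0.0055) and -1.0 ± 0.15 for Hwangbong against Yeonsan Ogye (adjusted p = 0.0124). The first of these held in 15 of 15 fits that left out 1 bird, and the second was lost without Hwangbong bird 2 (adjusted p = 0.0812). The F test was lost without Hwangbong bird 1 or 2 (up to 0.0677).

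MIR1646 was high in Hwangbong and low in Hyunin Black. It had 7.03, 7.14 and 7.48 in Hwangbong birds and 6.31, 6.36 and 6.43 in Hyunin Black birds, with 6.83, 6.31 and 6.39 in Yeonsan Ogye birds, 6.67, 6.59 and 6.62 in Hoengseong Yakdak birds and 6.81, 6.82 and 6.95 in White Leghorn birds. Hwangbong birds lay above all others. The difference of Hwangbong from Hyunin Black was 0.85 ± 0.14 (limma adjusted p = 0.0191), the only 1 of 392 microRNA genes to pass in that comparison, where 0.371% of all features did. It was lost without Hyunin Black bird 1 or 2 or Hwangbong bird 2 or 3 (adjusted p up to 0.0752). The F test passed in 8 of 15 such fits and was lost without any Hyunin Black bird, Hwangbong bird 2 or 3, or Hoengseong Yakdak bird 2 or 3 (up to 0.0855). Hwangbong also had 0.71 ± 0.14 over Yeonsan Ogye (adjusted p = 0.0517) and Hoengseong Yakdak had -0.59 ± 0.14 from Hwangbong (adjusted p = 0.0536), neither past the threshold.

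MIR1556 had 4.56, 4.56 and 4.61 in Hwangbong birds and 2.71, 3.01 and 3.28 in Yeonsan Ogye birds. The other breeds had 3.20, 3.78 and 4.02 (Hyunin Black), 3.78, 3.54 and 3.27 (Hoengseong Yakdak) and 4.52, 3.28 and 4.42 (White Leghorn). Hwangbong birds stood above all others, and the 3 White Leghorn birds were spread from near the Hwangbong level to the level of the highest Yeonsan Ogye bird. The Hwangbong difference from Yeonsan Ogye was 1.58 ± 0.29 (limma adjusted p = 0.04). It held in 6 of 15 fits that left out 1 bird and was lost without any bird of these 2 breeds, Hyunin Black bird 2, or Hoengseong Yakdak bird 2 or 3 (adjusted p up to 0.138).

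MIR181B1 belongs to the miR-181 family, known in mouse for its part in lymphocyte development. It had 3.01, 3.12 and 2.95 in Hoengseong Yakdak birds, 4.12, 3.90 and 3.58 in Hwangbong birds and 2.90, 3.08 and 2.75 in Yeonsan Ogye birds, with 3.61, 3.41 and 2.93 in Hyunin Black birds and 3.35, 2.90 and 2.88 in White Leghorn birds. Hwangbong was the high breed, and its lowest bird lay just under the highest Hyunin Black bird. The difference was -0.84 ± 0.19 for Hoengseong Yakdak from Hwangbong (limma adjusted p = 0.0402) and 0.96 ± 0.19 for Hwangbong from Yeonsan Ogye (adjusted p = 0.0496). These calls held in 6 and 3 of 15 fits that left out 1 bird. The first was lost without White Leghorn bird 2 or 3, Yeonsan Ogye bird 1, Hyunin Black bird 2, Hwangbong bird 1 or 2, or any Hoengseong Yakdak bird (adjusted p up to 0.138). The second passed only without White Leghorn bird 1 or Hyunin Black bird 1 or 3 (up to 0.172 in the others).

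Hwangbong against Yeonsan Ogye thus gave 4 of 392 microRNA genes, 3 higher and 1 lower (0.317% of all features passed), and Hoengseong Yakdak against Hwangbong gave 2 (1.46% of all features). Hyunin Black against Yeonsan Ogye gave 1 (0.0492% of all features) and Hoengseong Yakdak against Yeonsan Ogye gave 1 (0.317%), both MIR1803. Hoengseong Yakdak against Hyunin Black gave 0 with limma (0.295% of all features), with 29 at an unadjusted p under 0.05 (7.4%, where 11.1% of all features did). Among the cell-type markers, LYG2, a goose-type lysozyme of heterophils and the 1 measured marker of granulocytes, was lower by -1.62 in Hwangbong than in Yeonsan Ogye (limma adjusted p = 0.0496), and CDH1, the epithelial cadherin and 1 of 3 epithelial markers, was higher by 0.67 in Hoengseong Yakdak than in Hwangbong (adjusted p = 0.00549). The 5 measured T and NK cell markers all lay lower in Hoengseong Yakdak than in Hwangbong (median difference -0.46), and 0 passed. In Hwangbong against Yeonsan Ogye, 3 of them lay above 0 and 2 below, and 0 passed. The part of these markers in the microRNA gene differences of those comparisons was not tested.

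By known role, the microRNA gene features of 8 lists gave 0 passes in the F test. Lists were matched by symbol as written. Listed genes that the array spells otherwise, such as MIR103A1, MIR29B2 and MIR30C2, are therefore outside the counts and medians, as are relatives of listed genes. Of the liver-enriched list, 7 of 15 symbols were measured, with mean signals of 2.00 to 5.93, and 0 passed against White Leghorn in any breed. MIR101-1 had -0.58 in Hwangbong and MIR194-1 had 0.48 in Yeonsan Ogye (log2 differences from White Leghorn, not past the threshold). MIR193B, which sits in a cluster with MIR365-1 and is known in mouse for its role in brown fat, had differences between -0.10 and 0.11. Median differences of this list were 0.00, 0.00, -0.22 and -0.05 in Yeonsan Ogye, Hyunin Black, Hwangbong and Hoengseong Yakdak.

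Of the lipid and insulin signalling list, 7 of 16 symbols were measured and 0 passed. The median differences from White Leghorn were 0.12, 0.13, 0.28 and 0.19 in the same order of breeds, and 4, 5, 4 and 6 of the 7 genes lay above 0. These medians leave out genes of the list that the array spells otherwise. Of those, MIR103A1 had -0.49, -0.66, -0.38 and -0.87, and MIR29B2 had -0.34, -0.24, -0.26 and -0.25. MIR103A2 had 0.07, 0.15, 0.07 and -0.24, and MIR29B1 had -0.11, -0.05, 0.24 and 0.12, and none of these 4 passed. MIR34A, a target of the p53 tumour suppressor that is raised in fatty liver of mouse, had -0.51 in Yeonsan Ogye, and MIR29C had 0.47 in Hwangbong. MIR107 had 0.19 to 0.29 in 3 breeds and -0.16 in Hyunin Black. The largest F in this list was 2.19, for MIR29C (limma adjusted p = 0.448).

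The let-7 family is known for holding back proliferation and for rising as cells mature. Its list held the 11 measured symbols that start with MIRLET7, and MIR98, which was not measured. The 11 were drawn from the measured symbols, so their count does not show how complete the family is on the array. The let-7 genes lay below White Leghorn in 10 of 11 cases in Yeonsan Ogye and in Hwangbong. They did so in 8 in Hyunin Black and in 5 in Hoengseong Yakdak, and 0 passed. MIRLET7G had the lowest differences in Hyunin Black, Hwangbong and Hoengseong Yakdak, -0.52, -0.66 and -0.57, and had -0.49 in Yeonsan Ogye. MIRLET7A2 had -0.53 in Yeonsan Ogye, against 0.04 in Hoengseong Yakdak. The median differences were -0.17, -0.08, -0.19 and 0.00 in Yeonsan Ogye, Hyunin Black, Hwangbong and Hoengseong Yakdak, while those over all features were -0.01 to 0.00.

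Of the blood and immune cell list, 12 of 15 symbols were measured, and MIR181B1 was the only one to pass, in Hwangbong against Yeonsan Ogye and in Hoengseong Yakdak against Hwangbong. MIR223, a microRNA of granulocytes in mammals, had -0.28, -0.36, -0.55 and -0.43 from White Leghorn in Yeonsan Ogye, Hyunin Black, Hwangbong and Hoengseong Yakdak, without passing. MIR144, made in red cells, had differences of 0.14 to 0.34. MIR451B, which lies in a cluster with it and is not on the list, went the other way, with -0.13, -0.24, -0.33 and -0.17 in that order of breeds, and the pair had r = -0.50 over the 15 birds. None of these passed. MIR142 and MIR155, microRNAs of lymphoid and myeloid cells, had differences between -0.07 and 0.24.

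The remaining lists hold microRNAs of other tissues and of proliferation, and 0 of their genes passed in any breed against White Leghorn. They were 9 of 19 striated muscle symbols, 8 of 12 endothelial and epithelial symbols, 9 of 15 neural symbols and 7 of 15 symbols of the MIR17 cluster and its paralogs. MIR19B1 and MIR92A1 of that cluster were measured under symbols not on the list and did not pass either, with 0.26, 0.24, 0.24 and 0.47 for MIR19B1 and -0.07, 0.02, 0.01 and 0.12 for MIR92A1 in Yeonsan Ogye, Hyunin Black, Hwangbong and Hoengseong Yakdak. MIR133B, a muscle microRNA, had -0.31, -0.61, -0.51 and -0.54 in Yeonsan Ogye, Hyunin Black, Hwangbong and Hoengseong Yakdak (F = 3.85, limma adjusted p = 0.242), while its cluster neighbour MIR206 had -0.09 to 0.30. MIR126, the endothelial microRNA encoded in EGFL7, had -0.72 in Yeonsan Ogye. MIR7B had 0.13 to 0.73, and MIR7-1 had -0.79 in Yeonsan Ogye. Each of these differences fell short of the threshold.

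The genes of the microRNA pathway itself, 26 of them measured among 38 listed symbols that include alternative names, gave 0 passes in the F test and in every comparison. DROSHA, the nuclear nuclease, had 0.24, 0.27, 0.24 and 0.41 from White Leghorn in Yeonsan Ogye, Hyunin Black, Hwangbong and Hoengseong Yakdak (smallest limma adjusted p = 0.0611, in Hoengseong Yakdak). Its partner DGCR8 had -0.19 to -0.23. DICER1 had -0.05 to 0.08, and AGO2, the Argonaute that cuts its targets, had -0.09 to -0.17. The largest F in the list was 6.53, for MOV10, an RNA helicase that binds Argonaute (adjusted p = 0.102).

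In the RefSeq annotation of the GRCg7b chicken assembly, which was used for names and neighbours only, 333 of the 392 microRNA genes lay inside another annotated gene, 286 of them inside a protein-coding one. Strand was not part of that table. For 212 of them the host had its own single-symbol feature, in 187 distinct hosts. The correlation of microRNA gene and host over 15 birds was centred near 0. The median Pearson r was 0.06 (range -0.71 to 0.72), with 123 pairs above 0 and 89 below. With the breed means removed, the median was 0.00. After Benjamini-Hochberg adjustment over 212 pairs, 0 passed by Pearson's r (24 had an unadjusted permutation p under 0.05), 0 within breeds (14 unadjusted), and 1 by Spearman's rho. For r and rho over 15 birds, the birds were shuffled across breeds. Breed differences in both genes can therefore lower those p-values. No such counts were made for pairs of genes that are not host and microRNA gene.

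The pair that passed by rank was MIR1555 and its host FARP1. Spearman's rho was 0.84 (adjusted permutation p = 0.0339) and Pearson's r was 0.67 (permutation p = 0.00575, adjusted p = 0.339). Within breeds r was 0.62 (permutation p = 0.0573, adjusted p = 0.739), and without the 2 birds farthest from the median FARP1 level it was 0.53. In every breed FARP1 was lowest in bird 1, a pattern that removing the breed means leaves in place. With the nearest measured genes beside it, MIR1555 had r = 0.57 for IPO5 (rho = 0.475, and r = -0.18 within breeds). For STK24 it had r = 0.49 (rho = 0.61, and r = 0.37 within breeds). Neither r passed after adjustment (adjusted permutation p = 0.236 and 0.309). Whether MIR1555 follows its host more closely than these neighbours was not tested. FARP1 averaged 9.03 ± 0.17 in Hoengseong Yakdak, 8.38 ± 0.25 in Hwangbong and 8.64 ± 0.29 in Yeonsan Ogye, with 8.63 ± 0.06 in Hyunin Black and 8.52 ± 0.28 in White Leghorn (SD, n = 3 each). Hoengseong Yakdak minus Hwangbong gave 0.65 ± 0.18 for FARP1 (limma adjusted p = 0.0961), where MIR1555 gave 0.96. Hwangbong minus Yeonsan Ogye gave -0.26 ± 0.18 for FARP1 (adjusted p = 0.674), where MIR1555 gave -1.0.

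**Figure D4:**
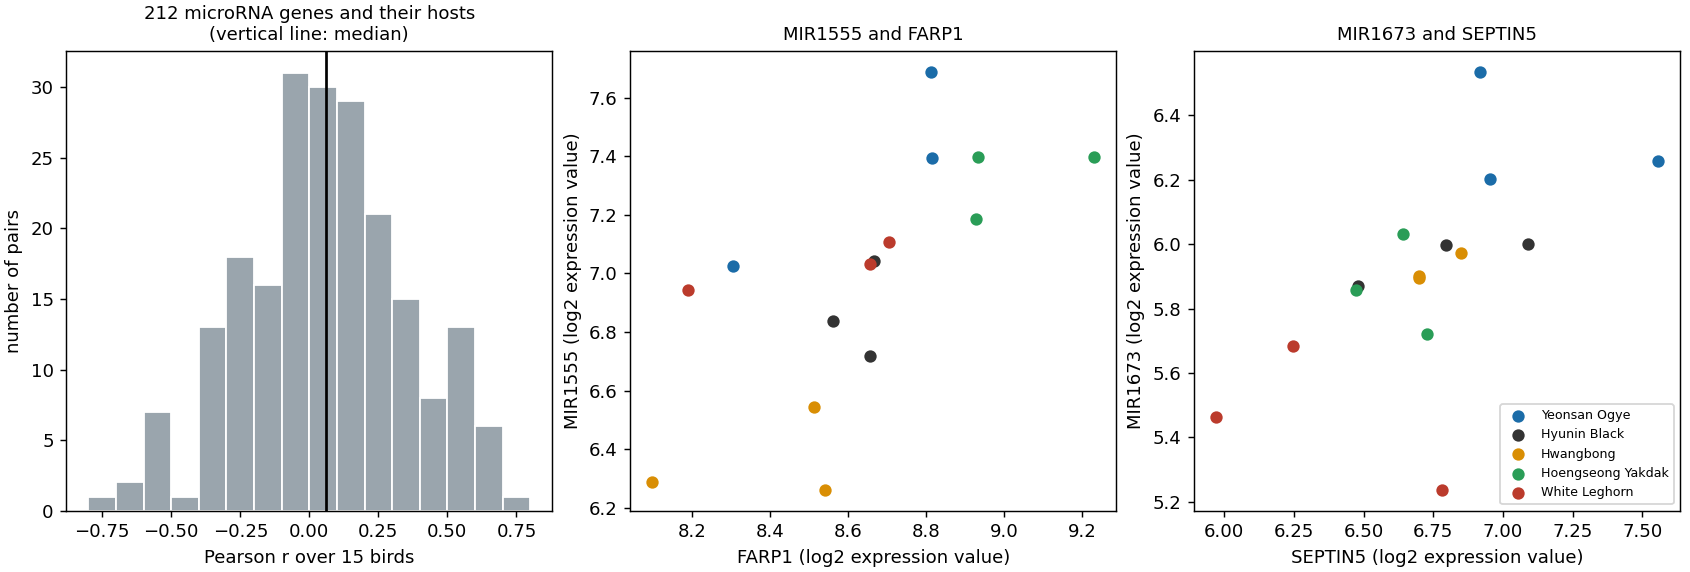
Left, number of pairs (vertical axis) by Pearson r over 15 birds between a microRNA gene and its host (horizontal axis), with the median of 0.06 as a line. Middle and right, log2 expression values of MIR1555 against its host FARP1 (r = 0.67) and of MIR1673 against its host SEPTIN5 (r = 0.59), each point a bird coloured by breed. With the breed means removed, r was 0.62 in the middle panel (permutation p = 0.0573) and -0.32 in the right panel (permutation p = 0.458).

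MIR1673 lies in SEPTIN5, which codes for a filament-forming septin, and the pair had r = 0.59 (permutation p = 0.0227, adjusted p = 0.347) and rho = 0.71 (adjusted p = 0.236). Within breeds r was -0.32 (permutation p = 0.458), with the opposite sign and not past the threshold. Both were highest in Yeonsan Ogye and lowest in White Leghorn. SEPTIN5 had differences from White Leghorn of 0.81 ± 0.21 in Yeonsan Ogye (limma adjusted p = 0.199), 0.46 ± 0.21 in Hyunin Black, 0.42 ± 0.21 in Hwangbong and 0.28 ± 0.21 in Hoengseong Yakdak, none past the threshold. MIR1729, a second microRNA gene in SEPTIN5, had r = 0.50 with it, and -0.25 without the 2 birds farthest from the median.

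For the other called genes, MIR122B had r = -0.35 with UNC5C, and MIR1756A had r = 0.34 with XRCC4, a partner of DNA ligase in end joining (-0.31 within breeds). In the native mean against White Leghorn, UNC5C had 0.09 ± 0.09, while MIR122B fell by 0.72, and XRCC4 had -0.31 ± 0.13 (limma adjusted p = 0.354). MIR1719, MIR1646, MIR1556 and MIR181B1 lay inside genes with no single-symbol feature. Over 18 pairs of the 9 called genes with the nearest measured genes beside them, 0 passed after adjustment (smallest adjusted permutation p = 0.236). The pair of MIR181B1 and MIR181A1, which share a cluster, had r = 0.32, and 0.61 within breeds (permutation p = 0.0933).

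The pairs at the ends of the range were MIR1705 with RC3H2, an RNA-binding ubiquitin ligase of the roquin family (r = 0.72, 0.78 within breeds), and MIR22 with TLCD2 (r = -0.71, -0.63 within breeds). MIR1653, among the highest signals, had r = 0.64 with its host LPP, a focal-adhesion protein, and 0.61 within breeds. LPP was highest in bird 1 of every breed, which removing the breed means also leaves in place. Adjusted permutation p-values of r were 0.339 for each of these 3 pairs.

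MicroRNA genes within 10 kb of each other formed 39 clusters of 93 genes, which gave 82 pairs. Correlations between members of a cluster ranged widely. The MIR17 cluster, with 6 measured genes, had pairs with r from -0.04 to 0.46 over the birds (median 0.23). The cluster of MIR302 genes, MIR367 and MIR1811, also with 6 measured genes, had pairs between -0.32 and 0.37. MIR193B and MIR365-1 had r = 0.63, and the 4 genes MIR130B, MIR454, MIR301A and MIR130A had pairs from -0.47 to 0.82. In 30 of the 39 clusters the median r was above 0. Most clusters were a single pair, strand was not used to form them, and no share was computed for pairs outside clusters. No cluster member other than MIR181B1 passed in any comparison, and MIR181A1 beside it had 0.01 from White Leghorn in Hwangbong, where MIR181B1 had 0.82.

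For 10 of the 392 genes the array held 2 features. In 7 the 2 features had identical values in every bird and were counted once. In MIR1603, MIR1726 and MIR1611 they differed, with r = 0.75, 0.12 and 0.29 over the birds. MIR1611, which lies in the chromatin remodeller gene CHD2, gave different answers by feature. The feature with the higher mean had 6.88, 6.99 and 6.91 in Yeonsan Ogye birds, 6.88, 6.22 and 6.69 in Hyunin Black birds, 6.64, 6.96 and 6.66 in Hwangbong birds and 6.46, 7.25 and 6.69 in Hoengseong Yakdak birds, against 6.94, 6.88 and 6.52 in White Leghorn birds, all overlapping (F = 0.69, limma adjusted p = 0.819).

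The other feature had 5.27, 5.73 and 4.79 in Yeonsan Ogye birds, 5.58, 4.67 and 4.83 in Hyunin Black birds, 5.50, 5.52 and 5.15 in Hwangbong birds and 6.17, 6.42 and 6.10 in Hoengseong Yakdak birds, against 6.11, 6.40 and 6.47 in White Leghorn birds. Yeonsan Ogye, Hyunin Black and Hwangbong birds all lay below those of Hoengseong Yakdak and White Leghorn. Its F was 11.7 (limma adjusted p = 0.0266), with differences from White Leghorn of -1.06 ± 0.24, -1.30 ± 0.24, -0.94 ± 0.24 and -0.10 ± 0.24 in Yeonsan Ogye, Hyunin Black, Hwangbong and Hoengseong Yakdak, none of which passed alone (smallest adjusted p = 0.0575). With this feature in place of the brighter one, 7 of 392 genes would pass the F test.

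**Figure D5:**
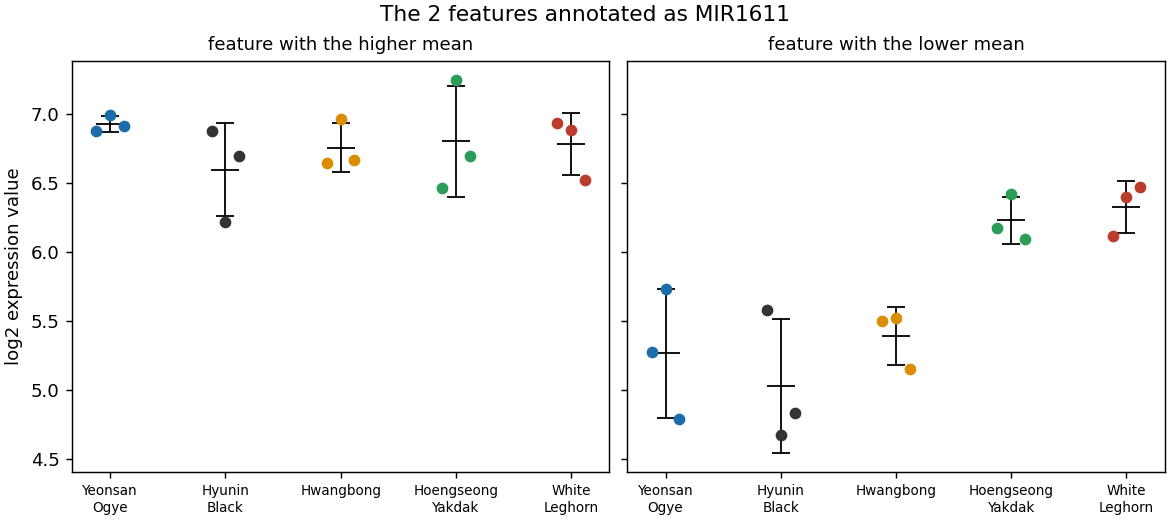
Log2 expression value (vertical axis) of the 2 features annotated as MIR1611, by breed (horizontal axis). Points are birds, and bars are the mean and SD of 3 birds. In the left panel the breeds overlap (F = 0.69). In the right panel Yeonsan Ogye, Hyunin Black and Hwangbong lie below Hoengseong Yakdak and White Leghorn (F = 11.7).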

How the data were processed

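The values deposited by the authors are on the log2 scale, 1 per feature and bird, and come from RMA, which corrects background, normalises between arrays and sums up probes. Expression Console 1.3.1 of Affymetrix is named for it in the submitters' processing notes. RMA makes each bird's value depend on the other arrays of its run. All 18308 features of the 15 arrays were used as deposited, with no filter and no further scaling. No detection calls were used, so signal over background could not be assessed, and the number of arrays limits the precision. Samples were grouped by the breed in the labels.

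Breed means of all 15 birds were estimated in a single linear model (limma 3.58.1, R 4.3.3, functions lmFit, contrasts.fit and eBayes), with 10 residual degrees of freedom. Each native breed and the mean of the 4 native breeds were set against White Leghorn, the native breeds against each other, and an F test covered all 5 breeds. Tests were two-sided. Benjamini-Hochberg adjustment ran over the whole table of 18308 features, and a gene passed at an adjusted p under 0.05. Group values are means ± SD of 3 birds and differences carry the model's standard error. With 3 birds a side, the smallest p of an exact permutation test is 0.1. On simulated data for Yeonsan Ogye minus White Leghorn over 18308 features, 20% of changes of 0.5, 84% of 1, 98% of 1.5 and 100% of 2 (log2) were recovered. Among the features given no change, 5 were called. The changes were put into features drawn from the whole array, with a median residual SD of 0.187. MicroRNA genes had 0.23, and recovery was not measured for them alone.

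Hosts are measured genes whose annotated interval holds the microRNA gene in RefSeq's GRCg7b table, where all 392 symbols matched. The array's own build is not given in the sources used here, so no coordinates are reported. Correlations have permutation p-values from 100000 resamples. The values within breeds had the breed means removed, which does not remove a shift shared by birds with the same replicate number. The replicate block was not applied to these pairs.

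Genes named are those that passed, in each native breed the 4 largest differences each way from White Leghorn among genes whose birds do not overlap, the highest and lowest mean signals, the largest F, and examples from the role lists. The members and lists were chosen with earlier results of these data known. Alternatives changed the moderation, array weights, scaling, filter, features and replicate block, and left out each bird in turn.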

Additional observations from a re-analysis of the deposited data

How the results depend on the processing

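The calls of 51 results for named genes were followed through the alternatives. Settings that kept all birds left the call as it was in 362 of 376 cases, ended it in 6 and added it in 8. Leaving out 1 bird ended the call in 111 of 765 cases and added it in 6. The sign changed in 0 cases of either kind. Both totals include results that did not pass in the main fit and so had no call to lose. The 376 also hold the setting with the other feature of genes that have 2, which could not change these results. Array weights gave 5 genes for Hwangbong and 1 for Hoengseong Yakdak against White Leghorn, 3 for Hoengseong Yakdak against Yeonsan Ogye and 5 for Hoengseong Yakdak against Hwangbong. A further quantile normalisation gave 1 for Hyunin Black against White Leghorn. Keeping the 12206 features with the highest mean signal leaves 125 of the 392 genes, and gave 1 gene for each of Yeonsan Ogye, Hyunin Black, Hwangbong and Hoengseong Yakdak against White Leghorn, 2 for the native mean, 2 for Hwangbong against Yeonsan Ogye, and 0 for Hyunin Black and for Hoengseong Yakdak against Yeonsan Ogye. Fitting 1 feature per named gene gave 2 for Hoengseong Yakdak against Yeonsan Ogye. Spearman's rho, chosen after seeing the data like the other host alternatives, gave 1 host pair. The filter left out MIR1803 (percentile 30.6 of mean signal), the only gene called for Hyunin Black and for Hoengseong Yakdak against Yeonsan Ogye. It also left out MIR1756A, MIR122B, MIR1556 and MIR181B1. The cause of the other changes in count was not tested.

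Leaving out 1 bird, the counts ranged from 0 to 3 for Yeonsan Ogye (lowest without White Leghorn 3), 0 to 2 for Hyunin Black (without its bird 3), 0 to 4 for Hwangbong (without White Leghorn 3 or Hwangbong 2 or 3), 0 to 1 for Hoengseong Yakdak and 0 to 4 for the native mean (without White Leghorn 1 or 3), each against White Leghorn. They ranged from 0 to 1 for Hyunin Black, 1 to 4 for Hwangbong (without its bird 2) and 1 to 2 for Hoengseong Yakdak against Yeonsan Ogye, from 0 to 2 for Hwangbong and 0 to 0 for Hoengseong Yakdak against Hyunin Black, from 1 to 3 for Hoengseong Yakdak against Hwangbong, from 2 to 7 in the F test (lowest without Hwangbong 2), and from 0 to 0 for host pairs.

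The birds share only a replicate number: over 30 pairs of birds with the same number in different breeds, deviations from breed means correlated by -0.086 to 0.239 (8 over 0.1). With the replicate block, 1 gene passed in Hoengseong Yakdak against White Leghorn and 1 against Hyunin Black, and the calls of MIR122B in Hwangbong against White Leghorn (adjusted p = 0.0573) and MIR1556 in Hwangbong against Yeonsan Ogye (0.0541) were lost in limma.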
